A study of Homo sapiens with 12 samples.

Results

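The central spindle is the bundle of overlapping microtubules that forms between the separating chromosomes in anaphase, and the midbody is what remains of it in the bridge between the daughter cells. Expression of 8 genes of these structures was followed in RPE1, immortalised cells of the human retinal pigment epithelium, with and without depletion of Anillin, a scaffold protein of the contractile ring. The genes were taken from the deposited table by name as known parts of the structure, 8 of 57773 gene identifiers: both subunits of centralspindlin (KIF23 and RACGAP1), the microtubule crosslinker PRC1, the midzone kinesins KIF4A, KIF20A, KIF20B and KIF14, and the midbody protein CEP55. All 8 symbols matched a row.

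Cells received siRNA against Anillin or a non-targeting siRNA with Lipofectamine RNAiMAX for 24 h. The living culture then took up the DNA dye Hoechst 33342 (2 µg/mL, 37 °C, 60 min) for sorting on DNA content, which gave 4 groups of 3 RNA-seq libraries: Anillin siRNA 4N, Anillin siRNA 2N, non-targeting siRNA 4N and non-targeting siRNA 2N, the last 2 called control 4N and control 2N. All groups are the same cell line and went through the same transfection, dye and sort. A 2N gate holds mostly G1 cells. A 4N gate takes G2 and mitotic cells, together with any tetraploid G1 cells left by a failed division, which DNA content alone does not tell apart. The labels speak of biological replicates without saying that they were separate cultures, so p-values measure the spread between these samples.

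Centralspindlin is a complex of the kinesin KIF23 and the GTPase-activating protein RACGAP1 that bundles antiparallel microtubules and recruits ECT2, the activator of RhoA, to the cell equator. PRC1 crosslinks antiparallel microtubules and brings KIF4A, which limits the length of the overlap, and KIF14, a partner of citron kinase, to the midzone. KIF20A carries the chromosomal passenger complex to the midzone, KIF20B is a plus-end kinesin needed for the last steps of cytokinesis, and CEP55 recruits the abscission machinery to the midbody. Messenger RNAs of this group are known to peak in G2 and mitosis. Many of their promoters are known targets of the DREAM and MuvB complexes, which bind the CHR element, and of NF-Y, which binds the CCAAT box.

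The bases before the transcription start are shown because the 8 genes moved together, as described further on. RefSeq promoters (GRCh38.p14) were found for 7 of the 8 genes, and RACGAP1 is named only. Each sequence is the 140 bases before the RefSeq start, 5′ to 3′ on the strand of the gene, with CHR elements (TTTGAA or TTCGAA, either strand) and CCAAT boxes (CCAAT, either strand) in capitals. The windows lie at chr15:69414209-69414348 (plus strand) for KIF23, chr15:90994536-90994675 (minus) for PRC1, chr10:93496472-93496611 (plus) for CEP55 and chrX:70289964-70290103 (plus) for KIF4A. They lie at chr5:138178972-138179111 (plus) for KIF20A, chr10:89701450-89701589 (plus) for KIF20B and chr1:200620752-200620891 (minus) for KIF14.
KIF23: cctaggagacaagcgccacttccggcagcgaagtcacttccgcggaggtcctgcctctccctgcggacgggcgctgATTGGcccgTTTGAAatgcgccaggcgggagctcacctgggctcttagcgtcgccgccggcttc
PRC1: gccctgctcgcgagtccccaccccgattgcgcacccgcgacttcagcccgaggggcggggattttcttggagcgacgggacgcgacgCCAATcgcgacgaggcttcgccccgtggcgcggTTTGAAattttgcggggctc
CEP55: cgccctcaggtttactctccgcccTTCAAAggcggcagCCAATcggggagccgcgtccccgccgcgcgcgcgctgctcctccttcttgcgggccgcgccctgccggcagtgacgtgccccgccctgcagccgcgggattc
KIF4A: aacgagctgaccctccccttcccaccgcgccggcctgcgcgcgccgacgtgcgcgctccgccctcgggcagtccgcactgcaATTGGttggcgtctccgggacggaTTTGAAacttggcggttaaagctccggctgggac
KIF20A: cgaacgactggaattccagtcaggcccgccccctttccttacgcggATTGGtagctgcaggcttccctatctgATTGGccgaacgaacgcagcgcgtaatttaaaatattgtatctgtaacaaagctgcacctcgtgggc
KIF20B: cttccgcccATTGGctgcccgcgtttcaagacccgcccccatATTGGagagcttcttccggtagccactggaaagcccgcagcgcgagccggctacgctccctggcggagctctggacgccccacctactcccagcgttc
KIF14: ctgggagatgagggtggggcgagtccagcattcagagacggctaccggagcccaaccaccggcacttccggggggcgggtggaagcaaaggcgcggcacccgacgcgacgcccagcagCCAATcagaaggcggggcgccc

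In the whole 250 bases before the start, a CCAAT box was present in 7 of 7 promoters and in 32.0% of the 35116 promoters of the table. A CHR element was present in 4 of 7 (KIF23, PRC1, CEP55 and KIF4A) and in 14.3% of all promoters. In KIF23, PRC1 and KIF4A the CCAAT box stood upstream of the CHR element, with first bases at -64 and -55, -53 and -20, and -58 and -34 from the start. In CEP55 the order was the reverse for the CHR element wholly before the start, at -116, and the CCAAT box, at -102. A second CEP55 CHR match (TTCAAA) began at -3, ran across the start and lay downstream of the CCAAT box. When the 50 bases after the start were added, a window chosen after seeing the matches, the CHR element was present in 6 of 7, with KIF20B at 25 and 31 and KIF14 at 2, and in 16.4% of all promoters. A match is a run of letters and not a measured binding site.

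The deposited values are RPKM, read counts scaled to gene length and library size, and the length the authors divided by is the genomic span of each gene with its introns. Genes with long introns therefore stand low on this scale: KIF4A spans 130743 bases with 4533 bases of merged exons, and KIF20A spans 8997 bases with 3958. Differences between groups are log2 differences of RPKM + 0.5 with their standard error and adjusted p from limma over 12892 genes. They understate the change between groups of genes near or under 0.5 RPKM, but a difference between such changes can be overstated. The same differences were fitted on whole reads recovered from the deposited steps, over 22404 genes, and are called read-based. Each of the 8 genes had at least 96 reads in each library.

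The libraries held between 17412743 and 61760470 reads in genes. The targeted gene ANLN had RPKM values of 0.0989, 0.0855 and 0.0700 (Anillin 4N), 0.0850, 0.0582 and 0.0396 (Anillin 2N), 8.42, 7.45 and 7.98 (control 4N), and 1.88, 1.25 and 1.67 (control 2N). Of 11 markers of retinal pigment epithelium, 3 had a mean of at least 0.5 RPKM (KRT18, KRT8 and OTX2), and the differentiation markers RPE65 and TYR were near 0. The list's summed level was 99.7 to 109.3 RPKM in Anillin 4N, 112.8 to 125.2 in Anillin 2N, 121.2 to 123.9 in control 4N and 134.6 to 152.2 in control 2N, and its part in the results was not tested. Of the blood cell markers 1 of 5 reached 0.5 RPKM (CD68), with a list sum of 12.9 to 14.7 RPKM in Anillin 4N, 12.6 to 13.4 in Anillin 2N, 16.6 to 17.3 in control 4N and 16.6 to 16.8 in control 2N, and CD3E and HBB were listed at 0. Of the 5 markers of other epithelia and muscle, 0 reached 0.5 RPKM.

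All 8 genes had the same arrangement of levels: highest in control 4N, lowest in Anillin 2N, with Anillin 4N and control 2N between. In bulk samples, fewer cells of a type and less RNA per cell cannot be told apart. In control 4N and in control 2N, replicate 2 was the lowest library of its group for all 8 genes, and the replicate numbers are names only.

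KIF23 (ENSG00000137807, chr15:69414246-69448427, plus strand, GRCh38) encodes the motor subunit of centralspindlin. Its RPKM was 1.45, 1.32 and 1.52 in Anillin 4N, 0.756, 0.701 and 0.755 in Anillin 2N, 9.43, 8.34 and 8.81 in control 4N, and 1.91, 1.26 and 1.51 in control 2N. Anillin 4N and control 2N overlapped, and the other groups did not. RACGAP1 (ENSG00000161800, chr12:49976923-50033136, minus strand), its partner, had RPKM values of 0.855, 0.877 and 0.912 in Anillin 4N, 0.483, 0.435 and 0.419 in Anillin 2N, 5.40, 4.97 and 5.12 in control 4N, and 1.14, 0.828 and 1.06 in control 2N. Here too the ranges of Anillin 4N and control 2N were the overlapping ones. ECT2, the exchange factor that centralspindlin recruits, averaged 0.743 ± 0.036 RPKM in Anillin 4N, 0.485 ± 0.017 in Anillin 2N, 3.05 ± 0.10 in control 4N and 0.782 ± 0.103 in control 2N (SD, n = 3 each).

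PRC1 and its kinesin partners followed the same arrangement at very different levels on the RPKM scale. PRC1 (ENSG00000198901, chr15:90966038-90995629, minus strand) had RPKM values of 2.59, 2.48 and 2.61 in Anillin 4N, 0.994, 0.894 and 0.911 in Anillin 2N, 15.9, 13.7 and 15.2 in control 4N, and 3.74, 2.41 and 3.39 in control 2N. All 3 Anillin 4N libraries lay above control 2N replicate 2 and below the other control 2N libraries. KIF4A (ENSG00000090889, chrX:70290090-70420832, plus strand), the kinesin that sets overlap length, had RPKM values of 0.124, 0.111 and 0.126 in Anillin 4N, 0.0377, 0.0294 and 0.0329 in Anillin 2N, 1.06, 0.967 and 1.01 in control 4N, and 0.220, 0.140 and 0.187 in control 2N. No 2 groups overlapped for KIF4A. KIF14 (ENSG00000118193, chr1:200551497-200620734, minus strand), which binds both PRC1 and citron kinase, had RPKM values of 0.278, 0.247 and 0.286 in Anillin 4N, 0.0771, 0.0527 and 0.0616 in Anillin 2N, 2.01, 1.99 and 2.11 in control 4N, and 0.307, 0.197 and 0.243 in control 2N. KIF4A and KIF14 reached 0.5 RPKM in control 4N alone, so on this scale they entered the test only through the group in which they are high.

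KIF20A and KIF20B are relatives with separate roles. KIF20A (ENSG00000112984, chr5:138178719-138187715, plus strand), which takes the Aurora B complex to the midzone, had RPKM values of 6.70, 6.74 and 7.50 in Anillin 4N, 1.81, 1.61 and 1.95 in Anillin 2N, 37.4, 34.9 and 37.5 in control 4N, and 9.28, 5.94 and 7.89 in control 2N. KIF20B (ENSG00000138182, chr10:89701610-89774939, plus strand) had RPKM values of 0.489, 0.438 and 0.571 in Anillin 4N, 0.233, 0.221 and 0.214 in Anillin 2N, 2.81, 2.56 and 2.69 in control 4N, and 0.547, 0.419 and 0.505 in control 2N. The Anillin 2N mean was 23.2% of the control 2N mean for KIF20A and 45.5% for KIF20B, with no overlap of libraries for either. CEP55 (ENSG00000138180, chr10:93496632-93529092, plus strand), the abscission recruiter, had RPKM values of 1.38, 1.26 and 1.36 in Anillin 4N, 0.403, 0.339 and 0.354 in Anillin 2N, 11.4, 9.87 and 10.5 in control 4N, and 2.38, 1.42 and 2.08 in control 2N. CEP55 and KIF4A were the 2 genes whose Anillin 4N libraries all lay below the control 2N libraries.

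**Figure D1:**
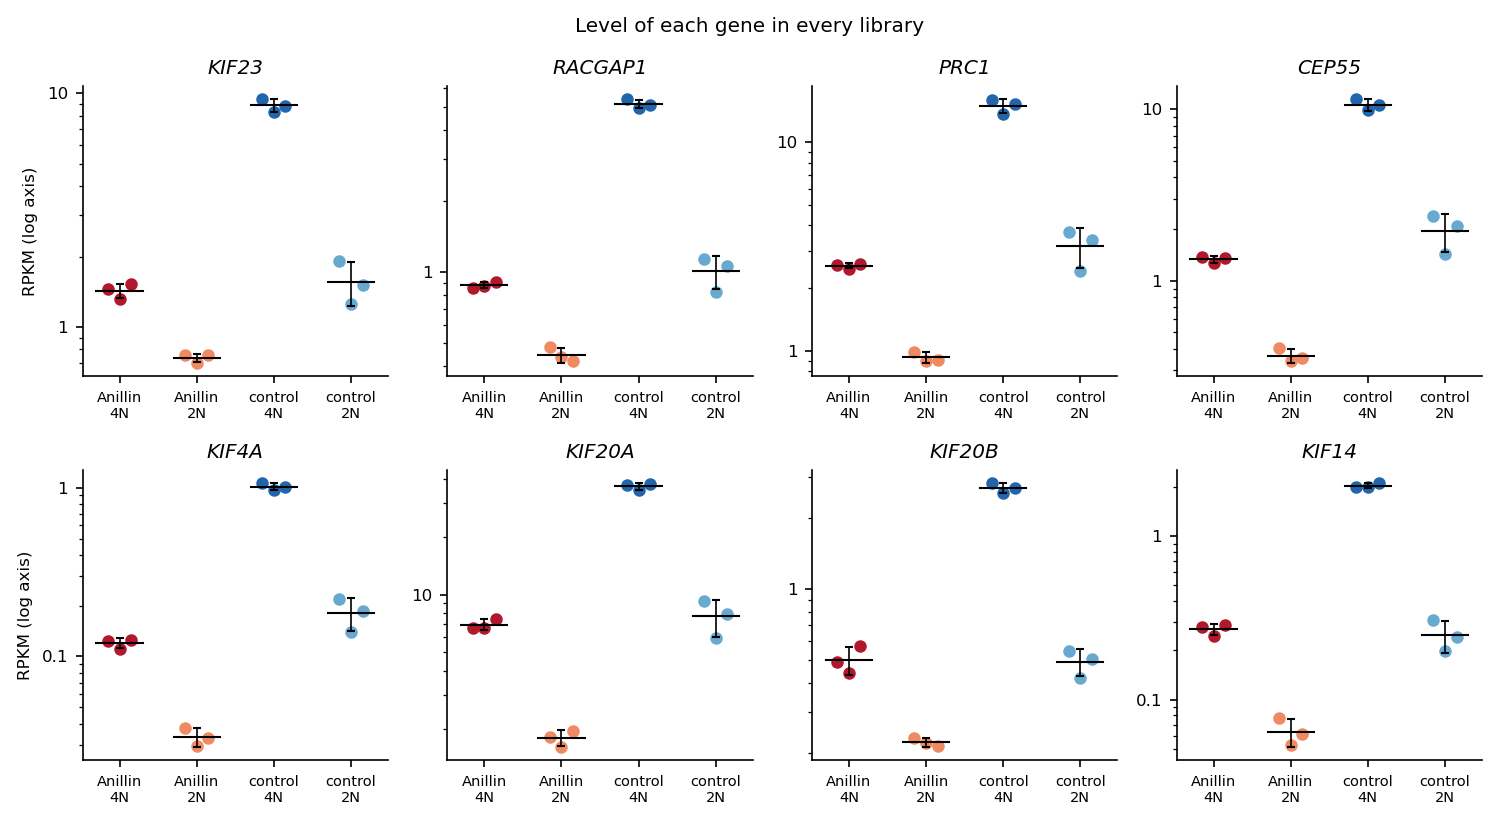
RPKM (log axis) of the 8 genes in each of the 12 libraries, 1 panel per gene; points are libraries, long bars group means and error bars the SD, with Anillin 4N, Anillin 2N, control 4N and control 2N from left to right. In each panel the 3 control 4N points are the highest and the 3 Anillin 2N points the lowest.

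The first comparison set the 4N fractions against each other, Anillin siRNA against non-targeting siRNA. All 8 genes fell, on both scales, and in each the libraries of the groups did not overlap. Their levels were 11.9% to 19.1% of control 4N, with a median of 16.6%. Of all genes tested, 31.5% fell by the same rule (23.6% by reads), and 60.4% had groups that did not overlap. The largest falls by reads were those of KIF4A (-3.06 ± 0.12), CEP55 (-2.99 ± 0.12) and KIF14 (-2.90 ± 0.11), and the smallest were those of KIF20A (-2.38 ± 0.10) and KIF20B (-2.40 ± 0.09). KIF23 (-2.62 ± 0.10), RACGAP1 (-2.54 ± 0.08) and PRC1 (-2.54 ± 0.11) lay between. On log2(RPKM + 0.5), where the pseudocount weighs on the low genes, the order was another. CEP55 changed by -2.60 ± 0.12 (adjusted p = 1.83e-07), PRC1 by -2.33 ± 0.12 (2.69e-07) and KIF20A by -2.31 ± 0.13 (4.91e-07). KIF23 changed by -2.28 ± 0.10 (1.00e-07), RACGAP1 by -2.04 ± 0.07 (4.27e-08) and KIF14 by -1.72 ± 0.05 (3.28e-08). KIF20B changed by -1.67 ± 0.06 (4.73e-08) and KIF4A by -1.29 ± 0.05 (7.87e-08). The median of the 8 was -2.16 and that of all genes -0.05. Without any 1 control 4N library KIF4A and KIF14 no longer reached 0.5 RPKM in enough libraries, and the count was 6.

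**Figure D2:**
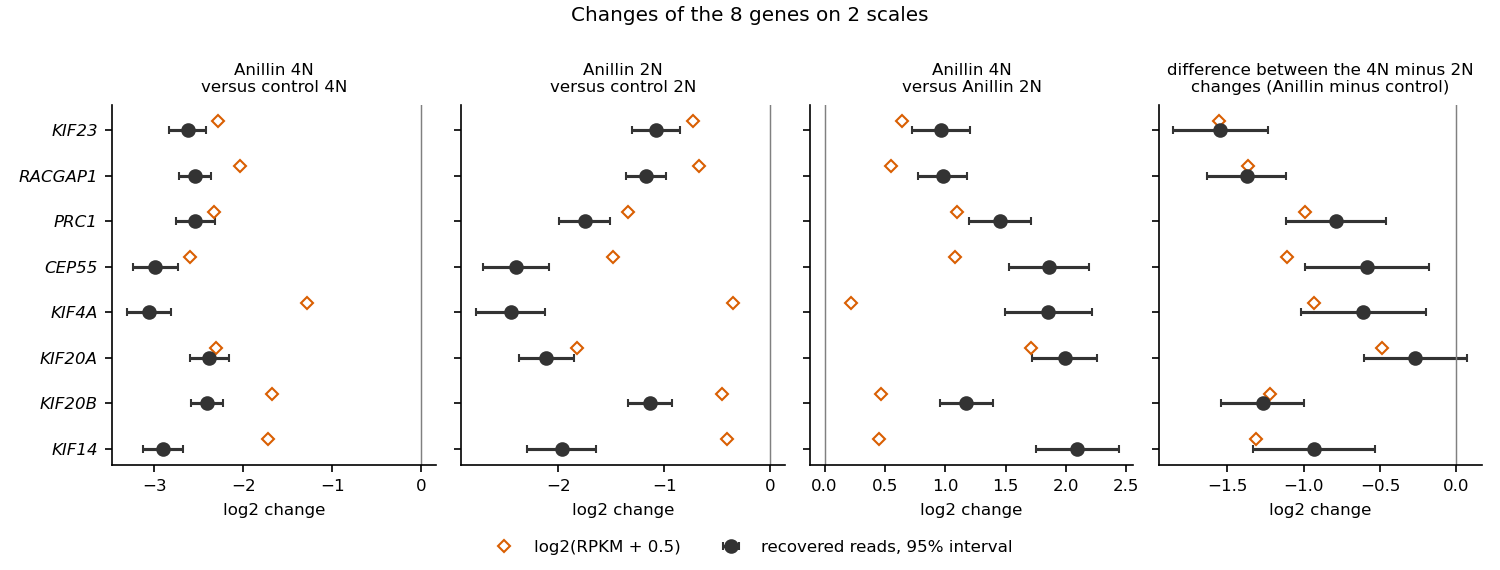
Log2 difference of each of the 8 genes in the comparisons between groups, with open diamonds for log2(RPKM + 0.5) and filled circles for recovered reads; bars are 95% intervals of the read-based values. Each gene lies below 0 in Anillin 4N against control 4N, where the scales are farthest apart for KIF4A (-1.29 and -3.06).

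Within the Anillin siRNA cultures, 4N cells held more of these transcripts than 2N cells. On log2(RPKM + 0.5), 7 of 8 rose, against 2.61% of all genes tested. The exception was KIF4A, at 0.22 ± 0.05 (adjusted p = 0.0569). By reads all 8 rose, against 2.57% of all genes, and KIF4A was at 1.85 ± 0.17 (adjusted p = 6.17e-07). KIF4A was also called with a pseudocount of 0.1 (adjusted p = 0.0355). The rises fell into a range: KIF14 (2.09 ± 0.16), KIF20A (1.99 ± 0.13) and CEP55 (1.86 ± 0.16) rose most by reads, while RACGAP1 (0.98 ± 0.10), KIF23 (0.96 ± 0.11) and KIF20B (1.17 ± 0.10) rose least. PRC1 was at 1.45 ± 0.12. On the RPKM means, Anillin 4N stood at 194% of Anillin 2N for KIF23 and at 424% for KIF14, and the libraries of the groups did not overlap for any of the 8, against 24.4% of all genes.

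In control cultures all 8 genes were also higher in 4N than in 2N cells, against 23.9% of all genes. No libraries overlapped, against 49.8%, with control 4N at 470% of control 2N for PRC1 and 818% for KIF14. KIF4A and KIF14 entered this test only through control 4N, and 6 to 8 genes were called higher when 1 library was left out. All 8 were also called by reads, against 19.0% of all genes, with 3.03 ± 0.10 for KIF14 and 2.24 (PRC1) to 2.51 (KIF23) for the other 7. The difference of the steps was tested as an interaction, the change of 4N over 2N after Anillin siRNA minus that in control. It was negative and called for 7 of 8 genes, against 10.7% of all genes called negative. The same 7 were called by reads, against 8.19% of all genes. On the RPKM scale 5 to 8 genes were called negative when 1 library was left out, and the same filter limit holds for KIF4A and KIF14. The read-based value was farthest from 0 for KIF23 (-1.54 ± 0.15), RACGAP1 (-1.37 ± 0.12) and KIF20B (-1.27 ± 0.13). KIF14 (-0.93 ± 0.19) and PRC1 (-0.79 ± 0.16) followed, and KIF4A (-0.61 ± 0.20, adjusted p = 0.0427) and CEP55 (-0.59 ± 0.19, adjusted p = 0.0484) lay close to the threshold. On log2(RPKM + 0.5) these genes lay farther from 0, at -1.31 (KIF14), -0.99 (PRC1), -0.93 (KIF4A) and -1.11 (CEP55). KIF23 (-1.56), RACGAP1 (-1.37) and KIF20B (-1.22) lay near their read-based values on that scale. KIF20A was not called, at -0.49 ± 0.18 on log2(RPKM + 0.5) (adjusted p = 0.10) and at -0.27 ± 0.16 by reads (95% interval -0.61 to 0.07). It was called with a pseudocount of 1 (-0.61, adjusted p = 0.0361) and without control 2N replicate 1 (-0.63, adjusted p = 0.0244).

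Among 2N cells, all 8 genes were lower after Anillin siRNA than in control, against 17.1% of all genes, with 8 of 8 called by reads as well, against 16.2%. The libraries did not overlap for any of the 8, against 41.4% of all genes. The size of the fall varied among the genes. KIF4A (18.3% of control 2N), CEP55 (18.7%), KIF20A (23.2%), KIF14 (25.6%) and PRC1 (29.3%) fell most, and RACGAP1 (44.2%), KIF20B (45.5%) and KIF23 (47.2%) fell least. Read-based differences ran from -2.45 ± 0.16 for KIF4A to -1.08 ± 0.11 for KIF23. Their 95% intervals were -2.78 to -2.12 for KIF4A and -1.30 to -0.85 for KIF23. The lowest genes changed little on log2(RPKM + 0.5): KIF4A by -0.35 ± 0.05 (adjusted p = 0.00107), a call lost with quantile scaling (-0.11, adjusted p = 0.407), and KIF14 by -0.41 ± 0.05 (adjusted p = 0.000592). KIF20A was at -1.82 ± 0.13 on that scale (adjusted p = 2.12e-05).

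Cells sorted at 4N after Anillin siRNA were also set against control 2N cells. CEP55 was lower, at -0.40 ± 0.12 (adjusted p = 0.0326), and the other 7 were not called, against 15.8% of all genes called lower. Levels were between 65.9% (KIF4A) and 109% (KIF14) of control 2N, and 2 of 8 had groups that did not overlap, against 43.3% of all genes. The call of CEP55 was lost without the filter (adjusted p = 0.0784), with only the compared groups in the fit (0.113) and without any 1 of 5 of the 6 libraries (0.0625 to 0.102). Without the sixth, control 2N replicate 2, which was the lowest of its group, 5 of the 8 genes were lower: CEP55, RACGAP1, PRC1, KIF4A and KIF20A. By reads 3 were lower, KIF4A (-0.60 ± 0.12, adjusted p = 0.00123), CEP55 (-0.54 ± 0.13, adjusted p = 0.00332) and PRC1 (-0.30 ± 0.11, adjusted p = 0.0475), against 14.8% of all genes. The unadjusted read-based 95% intervals of the genes not called were -0.33 to 0.11 for KIF23, -0.38 to -0.01 for RACGAP1, -0.35 to 0.10 for KIF20A, -0.15 to 0.23 for KIF20B and -0.13 to 0.38 for KIF14. The comparisons above share groups, so their calls are not separate evidence.

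Levels of different genes were compared as RPKM recomputed per kilobase of merged exon in place of genomic span. This level takes all recovered reads to lie in exons, which was not tested. Summed over the 8 genes, this level was 72.6 ± 3.54 in Anillin 4N, 26.1 ± 1.57 in Anillin 2N, 456.6 ± 25.0 in control 4N and 87.6 ± 18.3 in control 2N (SD, n = 3 each). In control 4N the exon-length level of CEP55 was highest (105.4 ± 7.83), followed by KIF20A (83.1 ± 3.36), PRC1 (80.0 ± 6.09), RACGAP1 (64.7 ± 2.71) and KIF23 (46.1 ± 2.84). KIF4A (29.2 ± 1.40), KIF20B (28.7 ± 1.35) and KIF14 (19.4 ± 0.60) were lowest. KIF20A and PRC1, and KIF4A and KIF20B, differed by less than their spread. In Anillin 2N the order was another: RACGAP1 (5.59 ± 0.41) and PRC1 (5.00 ± 0.29) led, and CEP55 (3.63 ± 0.33) stood below KIF20A (4.07 ± 0.39) and KIF23 (3.83 ± 0.16). KIF23 lay within 1 SD of both KIF20A and CEP55, while KIF20A was above both CEP55 and KIF23 in all 3 libraries. KIF20B was at 2.39 ± 0.10, KIF4A at 0.962 ± 0.121 and KIF14 at 0.607 ± 0.117. CEP55 made up 13.9% ± 0.45 of the summed level in Anillin 2N, against 22.0% ± 1.06 in control 2N. RACGAP1 made up 21.4% ± 0.96 in Anillin 2N, against 14.5% ± 0.80 in control 2N.

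Partners and relatives were compared as log2 ratios of their exon-length levels within a library, 4 pairs in 4 comparisons. With 3 libraries against 3 the smallest p of the exact two-sided permutation test is 0.1, and adjusted over the 16 tests it is 0.16, so none could pass. For the centralspindlin subunits, KIF23 over RACGAP1 was -0.57 ± 0.09 in Anillin 4N, -0.54 ± 0.11 in Anillin 2N, -0.49 ± 0.03 in control 4N and -0.65 ± 0.12 in control 2N (SD, n = 3 each). The groups overlapped in all 4 comparisons (exact p = 0.2 to 0.8). PRC1 over KIF4A was 1.99 ± 0.06 in Anillin 4N, 2.38 ± 0.11 in Anillin 2N, 1.45 ± 0.05 in control 4N and 1.70 ± 0.05 in control 2N, with no overlap in any comparison (exact p = 0.1, the smallest possible). PRC1 over KIF14 was 2.42 ± 0.07 in Anillin 4N, 3.06 ± 0.20 in Anillin 2N, 2.04 ± 0.10 in control 4N and 2.84 ± 0.11 in control 2N, with an overlap between the 2N groups alone. KIF20A over KIF20B was 1.58 ± 0.12 in Anillin 4N, 0.77 ± 0.17 in Anillin 2N, 1.53 ± 0.03 in control 4N and 1.72 ± 0.13 in control 2N. The 4N groups overlapped for this pair (exact p = 0.8), and Anillin 2N lay 0.96 below control 2N with no overlap (exact p = 0.1).

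**Figure D3:**
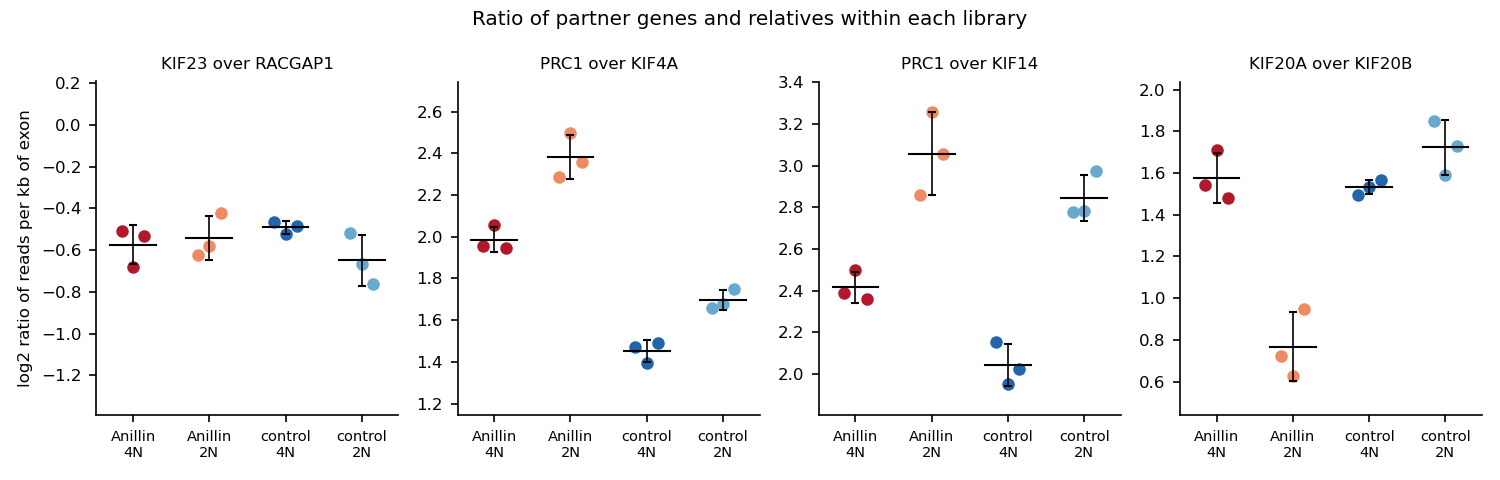
Log2 ratio of the exon-length levels of 4 pairs of partners or relatives in each library, with group means as long bars and the SD as error bars; groups run Anillin 4N, Anillin 2N, control 4N and control 2N from left to right, and each panel spans the same number of log2 units. KIF23 over RACGAP1 overlaps in all compared groups, while KIF20A over KIF20B is lowest in Anillin 2N.

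Some values carry a counting limit. KIF4B, an intronless relative of KIF4A, could take reads that belong to KIF4A: it had 33 reads in Anillin 4N, 17 in Anillin 2N, 569 in control 4N and 131 in control 2N, which is 2.74%, 3.48%, 3.87% and 3.92% of the KIF4A reads of these groups. The level of KIF4B is therefore uncertain. Whether counting used strand is not given in the sources used here. On the opposite strand, KIF20A overlaps BRD8 by 268 bases (at most 6743 reads in a library) and CDC23 by 68 bases (at most 1686). KIF4A overlaps PDZD11 by 425 bases (at most 2358 reads), also on the opposite strand. Antisense genes lie within KIF23 (AC027237.3, at most 1008 reads in a library) and PRC1 (PRC1-AS1, at most 202 reads). AC068831.7, a protein-coding gene on the strand of PRC1, overlaps 29440 of its 29592 bases and is not analysed here. The part of such reads in the values was not tested.

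Likeness to the mean profile of the 8 genes was measured as the root mean square difference of log2 reads, scaled to library size, over the 12 libraries, each profile centred on its own mean, among 12892 genes. The 5 closest genes outside the 8 were CKAP2L (0.0731), SPAG5 (0.0854), HMMR (0.109), CIT (0.114) and NUSAP1 (0.115). CKAP2L, SPAG5, HMMR and NUSAP1 encode spindle proteins, and CIT is citron kinase, the midbody kinase that KIF14 positions. Of the 8 genes themselves PRC1 was closest (0.103, the third of all genes), then KIF20A (0.178), CEP55 (0.267), KIF20B (0.267), RACGAP1 (0.275), KIF23 (0.282), KIF4A (0.290) and KIF14 (0.311). KIF20A ranked 23 of all genes and the rest ranked from 50 (CEP55) to 64 (KIF14), so many genes outside the 8 lay closer than these. Each of the 8 is part of the mean it was set against, so these values are not on a par with those of other genes. CIT averaged 0.176 ± 0.014 RPKM in Anillin 4N, 0.0536 ± 0.0030 in Anillin 2N, 1.09 ± 0.062 in control 4N and 0.190 ± 0.031 in control 2N (SD, n = 3 each).

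The rest of the cytokinesis machinery was described by lists in the same comparison of Anillin 4N with control 4N. The chromosomal passenger complex, which KIF20A carries, fell in 4 of 4 measured genes, with a median of -2.31, against 31.5% of all genes tested. BIRC5 fell most (-2.72 ± 0.14) and AURKB, its kinase, changed by -2.16 ± 0.16. Other midzone and midbody proteins fell in 7 of 7 measured genes (median -1.71), against the same 31.5%. Among them were NUSAP1 (-2.31 ± 0.09), the kinase PLK1 (-2.16 ± 0.10) and SHCBP1, a midbody protein that binds centralspindlin (-1.71 ± 0.08). By reads 14 genes of that list were measured, with 1 higher and 8 lower and a median of -0.27, against 23.6% of all genes lower. Mitotic cyclins, kinases and Ki-67, a list that shares PLK1, fell in 13 of 13 (median -2.32), again against 31.5%. TOP2A, which untangles DNA, was at -3.10 ± 0.07.

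Of 11 genes of the RhoA module and contractile ring, 9 fell and 1 rose (median -0.23), against 31.5% lower and 20.0% higher of all genes tested. ANLN, the siRNA target, fell most (-3.85 ± 0.10), CIT was at -1.24 ± 0.05 and ECT2 at -1.51 ± 0.05, and the myosin light chain gene MYL9 rose (0.26 ± 0.06). CIT reached 0.5 RPKM in control 4N alone, so it entered this test only through the group in which it is high. By reads CIT was at -2.62 ± 0.09. Without control 4N replicate 1 or replicate 2, 5 genes of that list fell. Of 8 septins, 5 fell and 3 rose (median -0.20), beside the same shares of all genes, with SEPTIN11 at -0.44 ± 0.04 and SEPTIN5 at 0.24 ± 0.06. A single septin rose with only the compared groups in the fit, and likewise without Anillin 4N replicate 3, control 4N replicate 1 or control 4N replicate 3. Of 25 ESCRT and abscission genes, whose early members CEP55 recruits, 6 fell and 5 rose (median 0.02), again beside 31.5% and 20.0% of all genes. The count that rose was 10 with quantile scaling, and 3 without any 1 of Anillin 4N replicates 2 and 3 and control 4N replicates 1 and 3. VPS4A, the ATPase that takes ESCRT-III filaments apart, changed by -0.34 ± 0.07 and VPS25 by 0.32 ± 0.05. Of 13 genes of membrane traffic to the midbody 5 fell and 0 rose by limma (median -0.06), beside the same 31.5% and 20.0% of all genes. The GTPase ARF6 was at -0.76 ± 0.06. At an unadjusted p under 0.05 limma gave 2 higher, for which no share of all genes was taken. By reads 1 of 16 rose and 6 fell, beside 4651 higher and 5293 lower of 22404 genes. For all genes the median was -0.05. In Anillin 4N against Anillin 2N, 0 septins, 0 ESCRT genes and 0 traffic genes were called by limma or by reads, and at an unadjusted p under 0.05 limma gave 1 septin, 2 ESCRT genes and 0 traffic genes. Of the other lists, 4 of 4 passenger complex genes, 12 of 13 mitotic genes and 4 of 7 other midzone proteins rose, and of the 11 genes of the RhoA module 2 rose and 1 fell. CIT was among those that rose (0.29 ± 0.05), with the same filter limit, and lost its call with quantile scaling. Of all genes tested, 2.61% rose and 0.970% fell in that comparison.

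**Figure D4:**
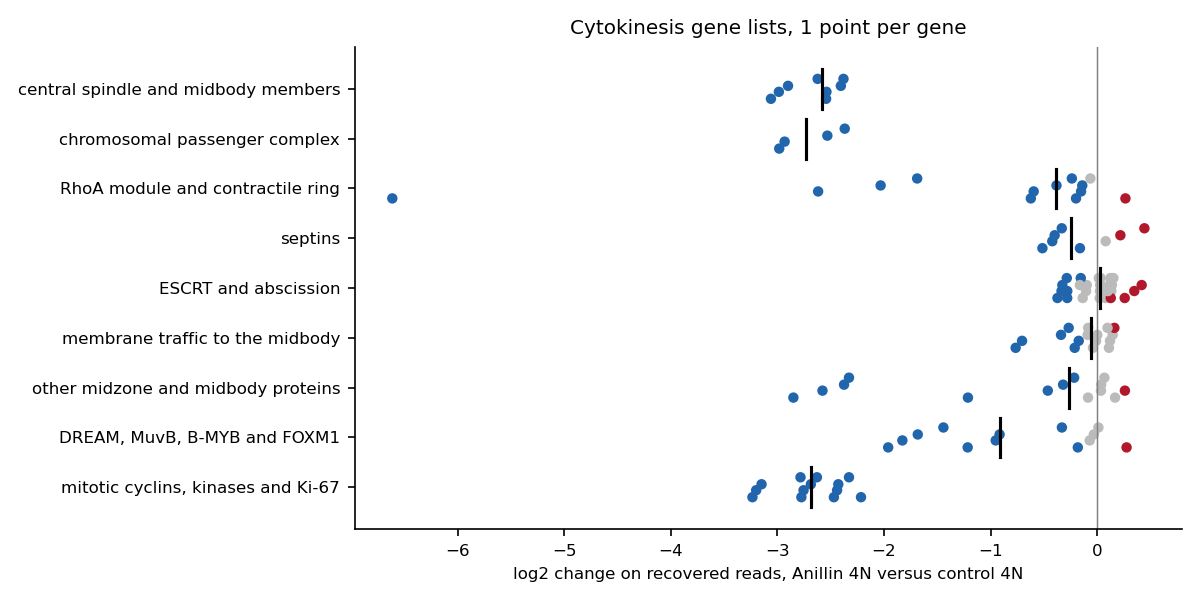
Read-based log2 difference of Anillin 4N over control 4N for each measured gene of the lists; points are genes (blue lower, red higher, grey not called by reads) and vertical bars are list medians. The medians are -2.58 for the 8 central spindle and midbody genes, -2.73 for the passenger complex and -2.69 for the mitotic genes, against -0.25 for septins, 0.03 for ESCRT genes and -0.06 for traffic genes.

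Regulators of these promoters were listed separately. Of 7 measured genes of DREAM, MuvB, B-MYB and FOXM1, 5 fell in Anillin 4N against control 4N (median -0.29), against 31.5% of all genes tested. By reads 9 of 13 fell and 1 rose (median -0.92), against 23.6% of all genes lower. FOXM1, a transcription factor of G2 genes, averaged 4.81 ± 0.218 RPKM in Anillin 4N, 2.42 ± 0.074 in Anillin 2N, 18.8 ± 1.30 in control 4N and 6.54 ± 1.06 in control 2N. It fell by 1.86 ± 0.10 in Anillin 4N against control 4N, and MYBL2, which encodes B-MYB, fell by 0.79 ± 0.11. CDKN1A, which encodes the CDK inhibitor p21, moved the other way: it averaged 85.2 ± 1.56 RPKM in Anillin 4N, 42.7 ± 2.02 in Anillin 2N, 31.1 ± 2.70 in control 4N and 27.0 ± 1.13 in control 2N (SD, n = 3 each). It rose by 1.44 ± 0.06 in Anillin 4N against control 4N. Among the 4 groups the order of CDKN1A was not the reverse of that of the 8 genes, since Anillin 4N held the highest CDKN1A level and Anillin 2N the lowest level of each of the 8.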

How the data were processed

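Poly(A) or ribosome-depleted RNA (the labels name both) of 12 libraries was sequenced. The authors deposited RPKM values per gene, and the submitters' processing notes name CASAVA 1.8.2, TopHat2, edgeR and hg19 without roles. Which annotation and counting tool were used is not stated there. RPKM matched whole reads divided by genomic span and by a scaled library total: all 38571 identifiers above 0 gave whole reads within 0.01 read, 29239 with spans of GENCODE 29 and 9332 by their own common divisor, which few values make easy. The authors' scaling lay between 0.951 and 1.04. Libraries held 17412743 to 61760470 reads, and KIF14 and KIF4A had the fewest, 96 and 97 in their lowest library. Gene positions come from GENCODE 29 (GRCh38, while the submitters name hg19).

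Genes with at least 0.5 RPKM in at least 3 libraries were tested with limma 3.58.1 (limma-trend, R 4.3.3) on log2(RPKM + 0.5), with 1 mean per group over all 12 libraries, two-sided, Benjamini-Hochberg adjusted over all genes, threshold 0.05. The read-based fit was limma-voom on genes reaching 10 reads in 3 or more libraries. Both fits were tested on simulated data. Other settings were pseudocounts of 0.1 and 1, no filter, quantile and median-of-ratios scaling, only the compared groups, and leaving out each library. Replicates were numbered in order of deposit. The named genes are the 8, ANLN, CDKN1A, the largest rise and fall of each list, listed partners and the 5 genes closest in profile. The 8 genes and the lists were chosen with earlier results of these data known.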

Additional observations from a re-analysis of the deposited data

Results flagged for a closer look

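The change of 4N over 2N cells differed between Anillin siRNA and control cultures, by the test of that difference itself (limma, log2(RPKM + 0.5), adjusted over all genes), for 7 of the 8 genes. The interaction was -1.56 for KIF23 (adjusted p = 9.29e-05), -1.37 for RACGAP1 (2.96e-05) and -1.22 for KIF20B (2.51e-05). It was -1.31 for KIF14 (1.19e-05) and -0.93 for KIF4A (5.00e-05). It was -1.11 for CEP55 (adjusted p = 0.00254) and -0.99 for PRC1 (adjusted p = 0.00373). In all 7 the step from 2N to 4N was smaller after Anillin siRNA. KIF14 and KIF4A entered the RPKM fit only through control 4N, and their levels in both Anillin groups lay under the pseudocount of 0.5. In Anillin 2N the means of CEP55 (0.366 RPKM), RACGAP1 (0.446) and KIF20B (0.223) also lay under 0.5. By reads (limma-voom) the same 7 were called, with KIF14 at -0.93 ± 0.19 and KIF4A at -0.61 ± 0.20 (adjusted p = 0.0427). PRC1 was at -0.79 ± 0.16 by reads, and CEP55 at -0.59 ± 0.19 lay close to the threshold (adjusted p = 0.0484). KIF23 (-1.54), RACGAP1 (-1.37) and KIF20B (-1.27) kept about the same size.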

How the results depend on the processing

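Of 646 log2 changes of the 8 genes recomputed under other settings or without 1 library, 628 kept their direction and side of the threshold, 10 gained a call, 8 lost one and none reversed. Without any 1 control 4N library KIF4A and KIF14 did not pass the filter. Those refits gave no value for these genes and are not among the 646. The count of the 8 genes called lower when Anillin 4N was set against control 2N was the least stable: 1 as reported, 0 without the filter, 0 with only the compared groups, 3 by voom, and 0 to 5 when 1 library was left out. The cause was not tested. Quantile scaling moved the split of all calls, to 3505 higher and 3182 lower in Anillin 4N against control 4N (2582 and 4056 as reported), 309 and 194 in Anillin 4N against Anillin 2N (336 and 125), 2096 and 2465 in control 4N against control 2N (3079 and 1703), 1951 and 1900 in Anillin 2N against control 2N (1473 and 2209) and 781 and 1099 for the interaction (636 and 1383). By voom it was 4248 and 3887 in control 4N against control 2N and 1424 and 1834 for the interaction. For Anillin 4N against control 4N, 3945 genes were higher without the filter and 4651 by voom. No paired analysis was possible because the labels give the groups no shared replicate numbers.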
